A study of Homo sapiens with 12 samples.

Results

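Activins are secreted dimers of inhibin beta subunits, and the 9 genes described here encode 3 of these subunits (INHBA, INHBB, INHBE), 2 antagonists that bind activins outside the cell (FST, FSTL3) and 4 receptors (ACVR1, ACVR1B, ACVR2A, ACVR2B). Every probe set that the array platform assigns to a single one of these symbols was taken, which gave 21 of the 54613 probe sets tested, for 9 of the 19775 genes measured. The genes were chosen by pathway with results of the same arrays in view, and INHBE was treated as selected on its measured rise in Sharp1 cells. That rise is therefore given as a description with no test. The adjusted p-values of the other members say only where they stood in a fit over the whole array.

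The RNA came from MDA-MB-231, an established human cell line of metastatic breast cancer, in 3 groups of 4 arrays lettered A to D. Sharp1 cells overexpressed the transcriptional repressor Sharp1, the product of BHLHE41. The shHIF cells carried retroviral hairpins against HIF1a and HIF2a, the oxygen-regulated subunits of the hypoxia-inducible factors, and the hairpin of the control cells was aimed at GFP (shGFP), also from a retrovirus. All cells were grown untreated in serum-containing medium. The promoter and vector of Sharp1, any clonal selection and any hairpin in the Sharp1 cells are not stated in the labels. Both comparisons with control rest on the same 4 GFP hairpin arrays. The labels call the replicates biological without saying whether they were separate cultures, and p-values then measure the spread between these arrays.

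Activins bind a type II receptor, ACVR2A or ACVR2B, which recruits and phosphorylates a type I receptor, chiefly ACVR1B, and this in turn phosphorylates SMAD2 and SMAD3. Follistatin, the product of FST, wraps around the ligand and blocks receptor binding, and FST is itself a known activin-induced gene. Activin A, the dimer of INHBA products, is known to restrain the growth of mammary epithelial cells, and INHBE is best known from liver, where its product is secreted as activin E.

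The promoters of 4 members are shown because INHBA and FST rose together in Sharp1 cells, INHBB fell, and 1 ACVR1B window was picked because it held the E-box, a class of site that repressors of the Sharp1 family are known to bind. Each runs 5′ to 3′ from 250 bases before to 50 bases after a RefSeq transcription start in GRCh38.p14. Capitals mark matches to CACGTG (the E-box) or to ACGTG (the core of the hypoxia response element, which lies inside CACGTG) on either strand.
INHBA: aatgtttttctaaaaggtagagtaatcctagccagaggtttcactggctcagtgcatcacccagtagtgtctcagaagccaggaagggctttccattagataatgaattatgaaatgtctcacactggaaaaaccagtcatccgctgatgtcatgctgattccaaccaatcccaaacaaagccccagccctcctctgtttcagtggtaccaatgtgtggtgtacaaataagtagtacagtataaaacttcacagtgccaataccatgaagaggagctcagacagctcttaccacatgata
FST: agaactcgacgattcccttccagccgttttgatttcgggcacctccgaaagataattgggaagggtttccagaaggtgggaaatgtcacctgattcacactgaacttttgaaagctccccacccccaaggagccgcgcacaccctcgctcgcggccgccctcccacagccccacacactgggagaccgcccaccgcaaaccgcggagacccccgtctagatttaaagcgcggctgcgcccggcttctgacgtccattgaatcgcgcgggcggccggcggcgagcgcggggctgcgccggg
INHBB: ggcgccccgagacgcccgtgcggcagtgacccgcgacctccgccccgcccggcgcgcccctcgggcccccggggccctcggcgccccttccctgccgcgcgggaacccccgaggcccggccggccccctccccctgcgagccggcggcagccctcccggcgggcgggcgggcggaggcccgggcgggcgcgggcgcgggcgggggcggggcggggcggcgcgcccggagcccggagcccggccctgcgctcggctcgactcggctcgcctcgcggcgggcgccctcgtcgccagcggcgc
ACVR1B: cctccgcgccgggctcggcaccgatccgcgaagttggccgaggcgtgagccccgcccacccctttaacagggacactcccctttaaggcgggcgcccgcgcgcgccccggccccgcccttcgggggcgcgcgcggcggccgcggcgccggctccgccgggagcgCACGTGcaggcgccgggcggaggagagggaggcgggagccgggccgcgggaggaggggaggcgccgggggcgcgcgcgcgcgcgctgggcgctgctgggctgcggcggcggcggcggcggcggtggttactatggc
The windows are chr7:41703041-41703340 on the minus strand for INHBA, chr5:53480379-53480678 on the plus strand for FST, chr2:120345886-120346185 on the plus strand for INHBB and chr12:51951449-51951748 on the plus strand for ACVR1B. RefSeq promoters were found for 8 of the 9 genes, that is for all members but INHBE. These genes have 11 windows in all, since some have several start sites. CACGTG was in 1 of the 11, the ACVR1B window shown, and not in the other ACVR1B window. ACGTG, counted with or without an E-box around it, was likewise in 1 of the 11, at that same E-box. Over 35116 promoters of the same length, 7.26% held CACGTG and 21.4% held ACGTG, counted in the same way. Base composition differed, with 43.3% G and C in the INHBA window, 63.7% in that of FST and 88.7% in that of INHBB. The ACVR1B window shown held 82.3%, and the median over all promoters was 58.7%.

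The median log2 value lay between 5.38 and 5.44 on every array, and arrays of a group correlated at 0.996 to 0.998. Of the targeted genes, Sharp1 cells had 40.9-fold more BHLHE41 signal on 1 probe set of 4 and 3.01-fold more on another, while the dimmest did not pass the test (limma adjusted p = 0.442) and the brightest overall fell by 2.06 (log2). In shHIF cells, 13.8% of the control signal was left for EPAS1, which encodes HIF2 alpha, on its brightest probe set. The other 2 EPAS1 probe sets, both dim, left 92.2% and 107.6% and were not called, and for HIF1A 60.2% was left. On its brightest probe set EPAS1 also fell in Sharp1 cells, by 0.71 (limma adjusted p = 7.07e-08). The 4 markers expected high in this line (VIM, CD44, CAV1, MMP14) read at least 9.55 in every group. Of the 4 expected low, CDH1 and PGR read 3.4 to 4.1, while ESR1 and GATA3 read above the median probe set (5.41). Summed signal of 5 fibroblast markers was 8.25 to 8.51 in Sharp1 cells and 8.34 to 8.49 in shHIF cells, against 8.28 to 8.48 in control (log2). For 4 leukocyte markers it was 7.05 to 7.23 in Sharp1 and 7.04 to 7.34 in shHIF cells, against 7.16 to 7.31 in control. Of single fibroblast and leukocyte markers, COL3A1, PDGFRB and PTPRC rose in Sharp1 cells, and COL3A1 and PTPRC in shHIF cells. The others were not called, and COL3A1 and PTPRC read below the median probe set in every group. The part of these markers in the results was not tested.

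The first question was how the activin system differed when Sharp1 was overexpressed. The beta subunits split: INHBA and INHBE were higher in Sharp1 cells and INHBB was lower. FST, the main antagonist, rose by close to 1 log2 unit on each of its 3 probe sets, and FSTL3 rose less. Among the receptors, ACVR1 rose, ACVR2B fell on 2 of 3 probe sets, and ACVR1B and ACVR2A differed by under 0.25 (log2).

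INHBA, the subunit of activin A, read 7.93, 7.74, 8.10 and 7.83 on Sharp1 arrays A to D, against 5.93, 5.81, 5.80 and 6.06 on the control arrays (log2, probe set 210511_s_at). Every Sharp1 array lay well above every control array. The difference was 2.00 (SE 0.09, n = 4 per group), or 4.00-fold, with limma's adjusted p at 4.98e-14. A further INHBA probe set, 227140_at, averaged 7.54 ± 0.09 in Sharp1 cells and 5.53 ± 0.20 in control (SD, n = 4 each). This is a difference of 2.01 (SE 0.10), so these probe sets gave the same size. The remaining INHBA probe set, 204926_at, read only 3.69 ± 0.11 in Sharp1 cells against 3.36 ± 0.10 in control (SD, n = 4 each), a difference of 0.34 (limma adjusted p = 0.00725). Its mean over all arrays ranked at the 17th percentile of probe sets, so this reading was close to the dim end of the array.

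INHBE, the subunit of activin E, has a single probe set. It read 6.11, 6.17, 6.28 and 6.03 on Sharp1 arrays A to D, against 3.23, 3.10, 3.62 and 3.79 on the control arrays (log2). The difference was 2.71 (SE 0.13, n = 4 per group), or 6.55-fold, the 4th largest rise among 19775 genes read on their brightest probe set. The groups were far apart, and the control readings lay well below the median probe set, so the fold rests on a dim reading. INHBC, a beta subunit gene that lies directly beside INHBE on chromosome 12, read 8.43 ± 0.17 in Sharp1 cells and 8.61 ± 0.22 in control on its brighter probe set (SD, n = 4 each). That difference of -0.18 did not pass the test (limma adjusted p = 0.218), nor did that of GLI1, the next protein-coding gene on the other side, at 0.09 (limma adjusted p = 0.665). These neighbours were chosen after the values of INHBE were seen.

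INHBB, the subunit of activin B, went the other way. It read 8.09, 7.99, 8.01 and 8.08 on Sharp1 arrays A to D, against 9.80, 9.67, 9.66 and 9.69 on the control arrays (log2). All 4 Sharp1 arrays lay far below all control arrays, and both groups were well above the median probe set. INHBB fell by 1.66 (SE 0.06, n = 4 per group, limma adjusted p = 1.81e-16), which left 31.6% of the control signal. Among 19775 genes, 56 had a larger fall.

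**Figure D1:**
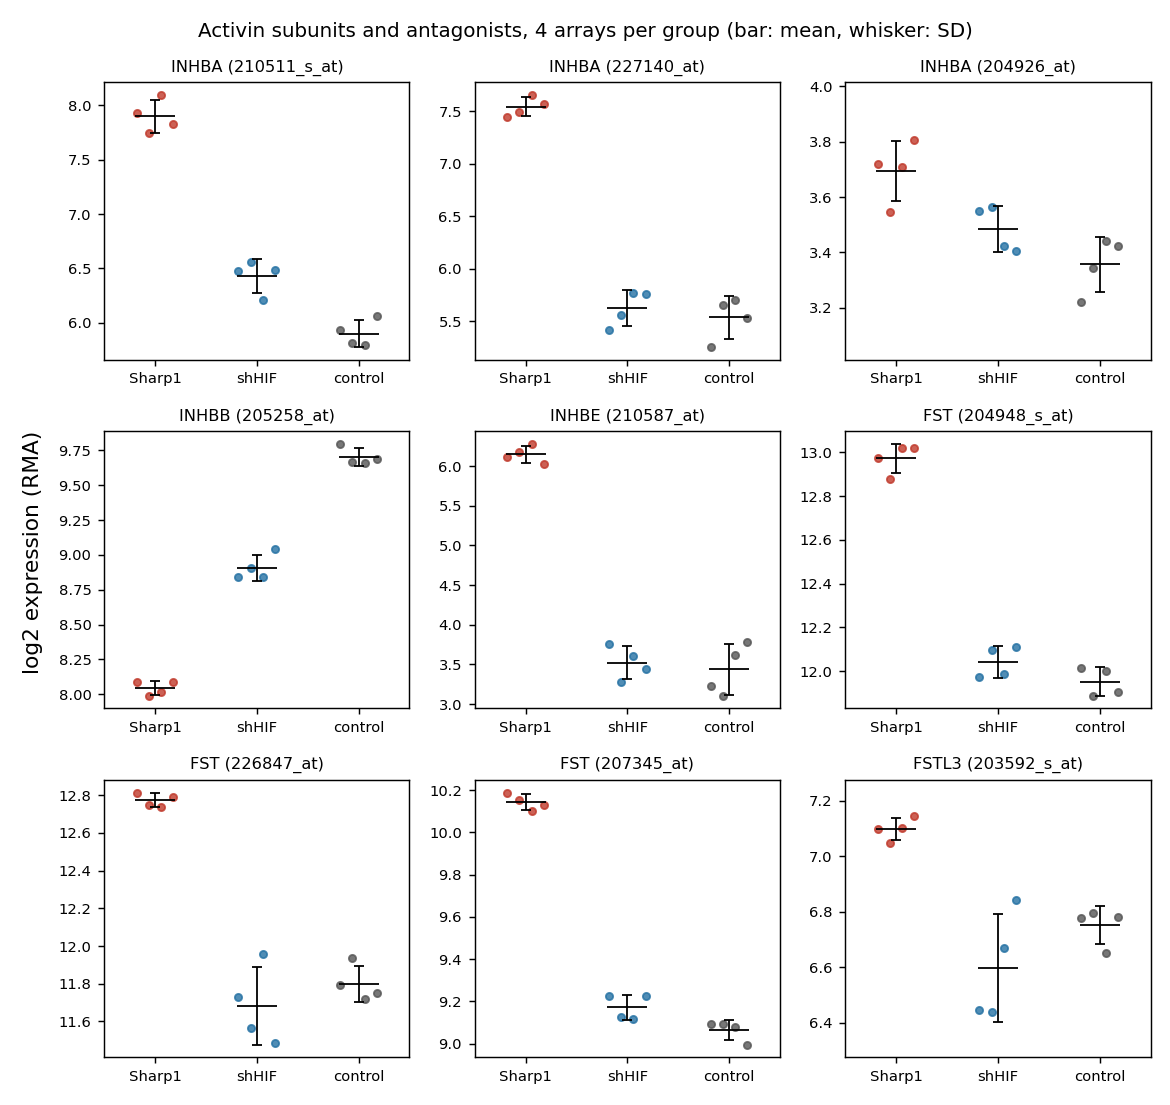
Log2 expression of each probe set of the activin subunits and antagonists on every array (points, 4 per group), with group mean (bar) and SD (whisker), for Sharp1, shHIF and control cells. Each panel spans at least 1 log2 unit on its own axis. Sharp1 arrays lie above the others for INHBE, for the 2 brighter INHBA probe sets and for FST, and below for INHBB.

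FST was among the brightest transcripts of the array, with its main probe set at the 99th percentile. It read 12.97, 12.88, 13.02 and 13.02 on Sharp1 arrays A to D, against 12.02, 11.89, 12.00 and 11.91 on the control arrays (log2, 204948_s_at). The groups did not overlap. FST rose by 1.02 (SE 0.04, n = 4 per group, limma adjusted p = 4.32e-15), or 2.03-fold. The other FST probe sets gave 0.97 (SE 0.07, 226847_at) and 1.08 (SE 0.05, 207345_at), and at such levels RMA values can be compressed. FSTL3, a relative of follistatin with the same class of ligand, read 7.10, 7.05, 7.10 and 7.15 on Sharp1 arrays, against 6.78, 6.80, 6.65 and 6.78 on control arrays. Here too the groups did not overlap, at a smaller distance. FSTL3 rose by 0.35 (SE 0.09, limma adjusted p = 0.00444), or 1.27-fold.

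ACVR1, a type I receptor best known for bone morphogenetic protein signalling, read 9.32, 9.15, 9.23 and 9.31 on Sharp1 arrays A to D, against 8.70, 8.85, 8.58 and 8.78 on the control arrays (log2). Every Sharp1 array was above every control array, and ACVR1 rose by 0.53 (SE 0.06, n = 4 per group, limma adjusted p = 6.82e-07). ACVR2B, a type II receptor with high affinity for activins, read 7.73, 7.63, 7.84 and 7.77 on Sharp1 arrays, against 8.17, 8.23, 8.22 and 8.19 on control arrays (236126_at). It fell by 0.46 (SE 0.06, limma adjusted p = 2.85e-06), and on 220028_at it fell by 0.39 (SE 0.10, limma adjusted p = 0.00522), where Sharp1 B overlapped the control arrays. The dim ACVR2B probe set 1559548_at differed by -0.17 (limma adjusted p = 0.314).

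ACVR1B, the main type I receptor of activins, has 6 probe sets, of which 4 read below the median probe set. On the brightest, 213198_at, it read 7.83, 7.83, 7.84 and 7.86 on Sharp1 arrays A to D, against 8.00, 8.04, 7.95 and 8.15 on the control arrays (log2). It fell by 0.19 (SE 0.06, n = 4 per group, limma adjusted p = 0.0319). The adjusted p ranged from 0.0171 to 0.115 over 20 alternative settings and passed the threshold in 12 of them. The call was lost with arrays centred on their medians (0.0879), without any single control array other than C (0.0521 without A, 0.0682 without B, 0.115 without D) and without any single Sharp1 array (0.0550 to 0.0683). The other 5 ACVR1B probe sets differed by -0.22 to -0.07 and were not called. ACVR2A, the other type II receptor, read 7.33 to 7.43 on Sharp1 arrays and 7.50 to 7.59 on control arrays (205327_s_at), a difference of -0.14 whose 95% interval ran from -0.28 to 0.00 (n = 4 per group, limma adjusted p = 0.199). On 228416_at the groups overlapped, with a difference of -0.03 (95% interval -0.25 to 0.19).

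INHBE was left out of the counts for this comparison, since it was treated as chosen by its rise. Of the other 20 probe sets, 12 passed an adjusted p of 0.05 in Sharp1 cells against control, 8 higher and 4 lower. Over all probe sets, 18.1% were called, 9.82% higher and 8.26% lower. The groups did not overlap on 13 of the 20, beside 21.6% of all probe sets. Signal level mattered for such counts. Of the 14 members above the median probe set, 11 were called, beside 31.7% of all probe sets above it, and of the 6 dimmer ones, 1 was called, beside 4.50%. The median size of a difference was 0.34 over the 20, beside 0.10 over all probe sets. Since the genes were listed with these results known, nothing is read from the counts. In RNA of whole cultures, fewer expressing cells and less RNA per cell cannot be told apart.

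**Figure D2:**
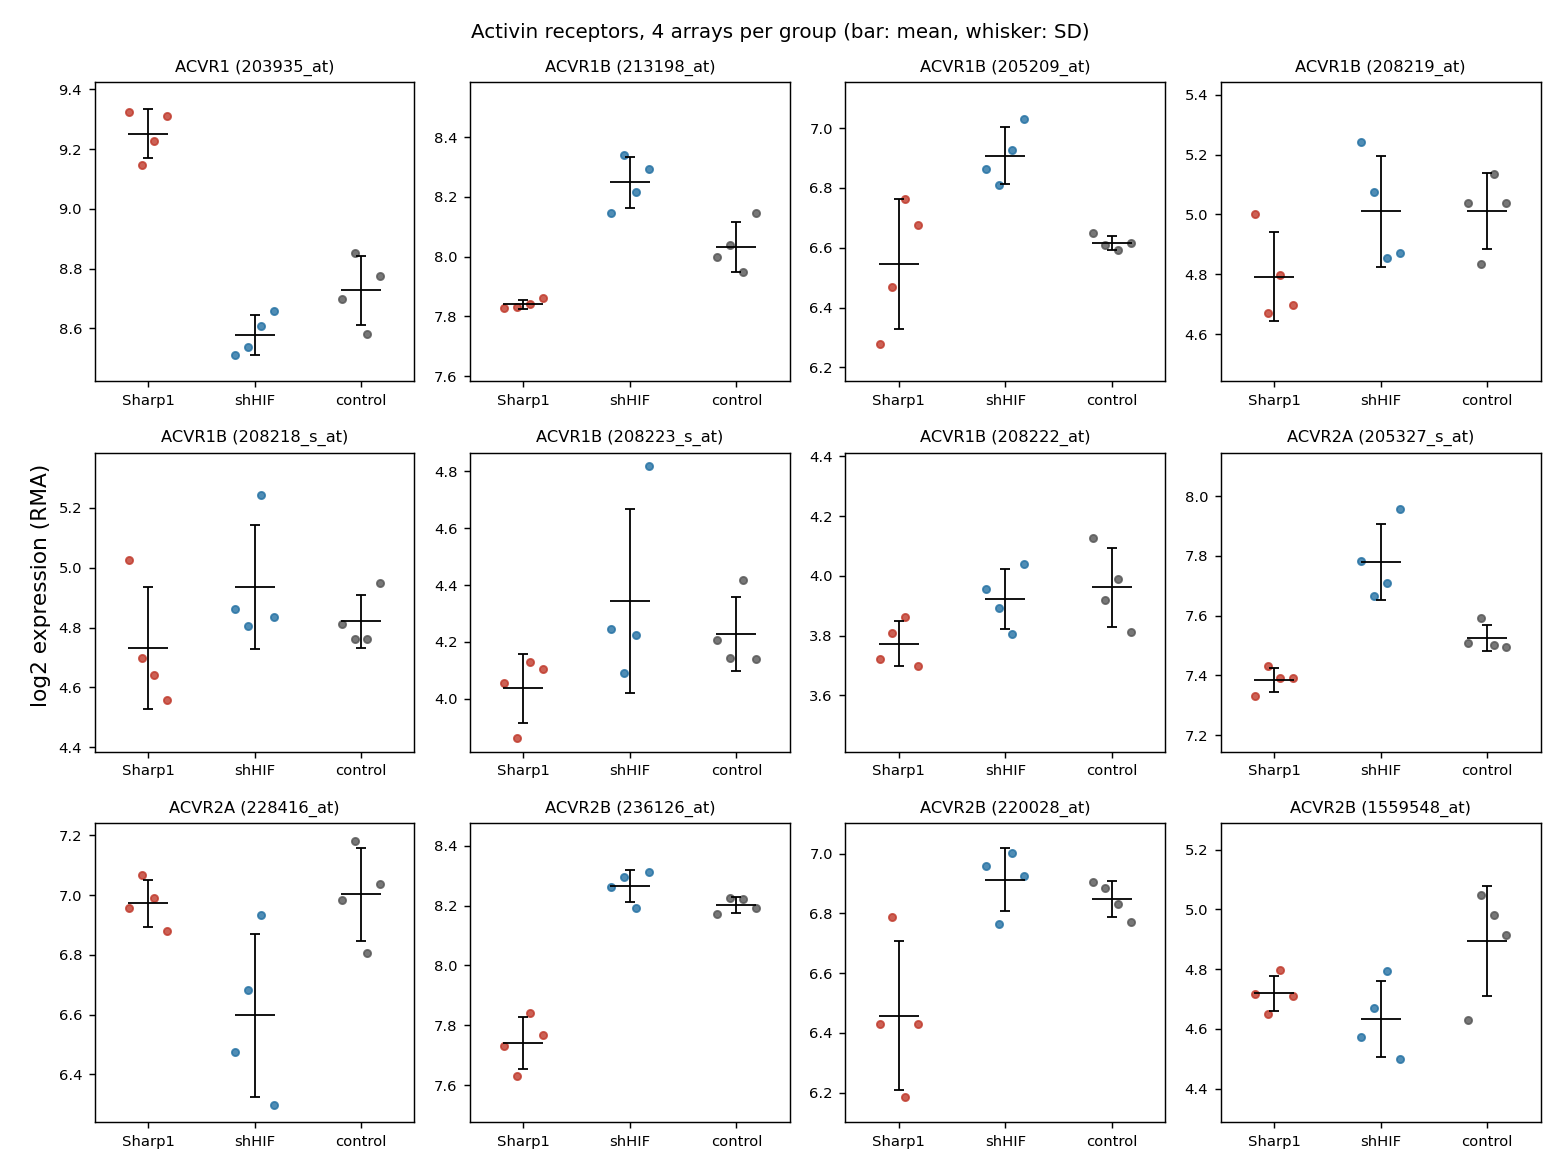
Log2 expression of each receptor probe set on every array (points, 4 per group), with group mean (bar) and SD (whisker), for Sharp1, shHIF and control cells. Each panel spans at least 1 log2 unit on its own axis. ACVR1 is higher and the 2 brighter ACVR2B probe sets lower in Sharp1 cells, and the 2 ACVR2A probe sets differ in the direction of shHIF.

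The next question was how the same genes differed when both HIF alpha subunits were depleted. INHBB fell in shHIF cells too, by less than in Sharp1 cells. INHBA rose on its brightest probe set and did not pass on the others. INHBE, FST, FSTL3, ACVR1 and ACVR2B did not pass the test on any probe set, and ACVR1B and ACVR2A differed by under 0.45 (log2).

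INHBB read 8.84, 8.90, 8.84 and 9.04 on shHIF arrays A to D, against 9.80, 9.67, 9.66 and 9.69 on the control arrays (log2). The groups did not overlap. INHBB fell by 0.80 (SE 0.06, n = 4 per group, limma adjusted p = 2.41e-10), which left 57.5% of the control signal. INHBA read 6.48, 6.56, 6.21 and 6.48 on shHIF arrays, against 5.93, 5.81, 5.80 and 6.06 on control arrays (210511_s_at). It rose by 0.53 (SE 0.09, limma adjusted p = 0.00012), or 1.45-fold, with no overlap. On 227140_at, which had given the same rise as 210511_s_at in Sharp1 cells, INHBA differed by only 0.09 in shHIF cells (95% interval -0.12 to 0.30, limma adjusted p = 0.61). The dim probe set 204926_at differed by 0.13 (limma adjusted p = 0.348), so the INHBA rise in shHIF cells stood on 1 of 3 probe sets.

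INHBE read 3.76, 3.27, 3.60 and 3.44 on shHIF arrays, within the control range of 3.10 to 3.79 (log2). The difference was 0.08 (95% interval -0.19 to 0.36, n = 4 per group, limma adjusted p = 0.734). The main FST probe set read 11.97 to 12.11 on shHIF arrays and 11.89 to 12.02 on control arrays, a difference of 0.09 (95% interval 0.00 to 0.17, limma adjusted p = 0.14). On 207345_at FST read 9.11 to 9.22 on shHIF arrays and 8.99 to 9.09 on control arrays. These groups did not overlap, but the difference of 0.11 did not pass the test (limma adjusted p = 0.128). The remaining FST probe set (226847_at) differed by -0.12, which passed the test without shHIF C (-0.21, limma adjusted p = 0.00373), in a range of 0.00373 to 0.807 over its alternatives. FSTL3 differed by -0.15 (limma adjusted p = 0.234) and passed without shHIF D (-0.23, 0.0456), in a range of 0.0456 to 0.509. ACVR1 differed by -0.15 (limma adjusted p = 0.0996) and passed without control C (-0.20, 0.0314), in a range of 0.0314 to 0.318. No direction is given for these 3 in shHIF cells.

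ACVR1B rose by 0.22 on 213198_at (SE 0.06, n = 4 per group, limma adjusted p = 0.0135) and by 0.29 on 205209_at (SE 0.09, limma adjusted p = 0.023). The shHIF arrays read 8.15, 8.34, 8.22 and 8.29 on the first, against 8.00, 8.04, 7.95 and 8.15 in control, so that shHIF A and control D met. The first call was lost without control C (limma adjusted p = 0.0538) or shHIF B (0.0531). The second was lost without control B (limma adjusted p = 0.0528), control C (0.054), shHIF D (0.0752) or both shHIF A and D (0.139). The other 4 ACVR1B probe sets, all dim, differed by -0.04 to 0.12 and were not called. ACVR2A gave opposite directions on its 2 probe sets. It rose by 0.25 on 205327_s_at (limma adjusted p = 0.00838), with 7.78, 7.67, 7.71 and 7.96 on shHIF arrays against 7.50 to 7.59 on control arrays. On 228416_at it fell by 0.40 (limma adjusted p = 0.00671), with 6.48, 6.68, 6.93 and 6.30 on shHIF arrays against 6.98, 7.18, 6.81 and 7.04 on control arrays. Both calls were lost without shHIF A and D, where the differences were 0.16 (limma adjusted p = 0.148) on 205327_s_at and -0.19 (limma adjusted p = 0.240) on 228416_at. No direction can be given for ACVR2A in shHIF cells. The 3 ACVR2B probe sets differed by 0.06, 0.06 and -0.26, and the last passed without control A (-0.35, limma adjusted p = 0.0213) or shHIF C (-0.31, 0.0435).

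Of the 21 probe sets, 6 were called in shHIF cells against control, 4 higher and 2 lower. Over all probe sets, 22.2% were called, 10.7% higher and 11.5% lower. Of the 14 above the median probe set these were all 6, beside 37.7% of all such probe sets, and the 7 dimmer ones gave 0 in limma (1 at an unadjusted p under 0.05), beside 6.65%. The groups did not overlap on 5 of the 21, beside 22.3% of all probe sets. The median difference was 0.08 over the members and 0.02 over all probe sets. On shHIF A and D the spike-in transcripts added before hybridisation averaged 10.39 and 10.45 (log2), against 10.63 to 10.81 on the other 10 arrays. Without shHIF A and D, the calls of INHBA (210511_s_at), INHBB and ACVR1B (213198_at) were kept, in a fit with 2 arrays fewer. INHBA and INHBB passed the test on these probe sets under all 20 alternatives. A sign of RNA quality also moved with most shHIF arrays. The actin signal of the 3′ end minus that of the 5′ end was 0.90 to 0.94 (log2) on shHIF A, B and C and 0.62 on shHIF D, against 0.59 to 0.74 on control arrays. It was 0.56 to 0.85 on Sharp1 arrays, and its part in the results was not tested.

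**Figure D3:**
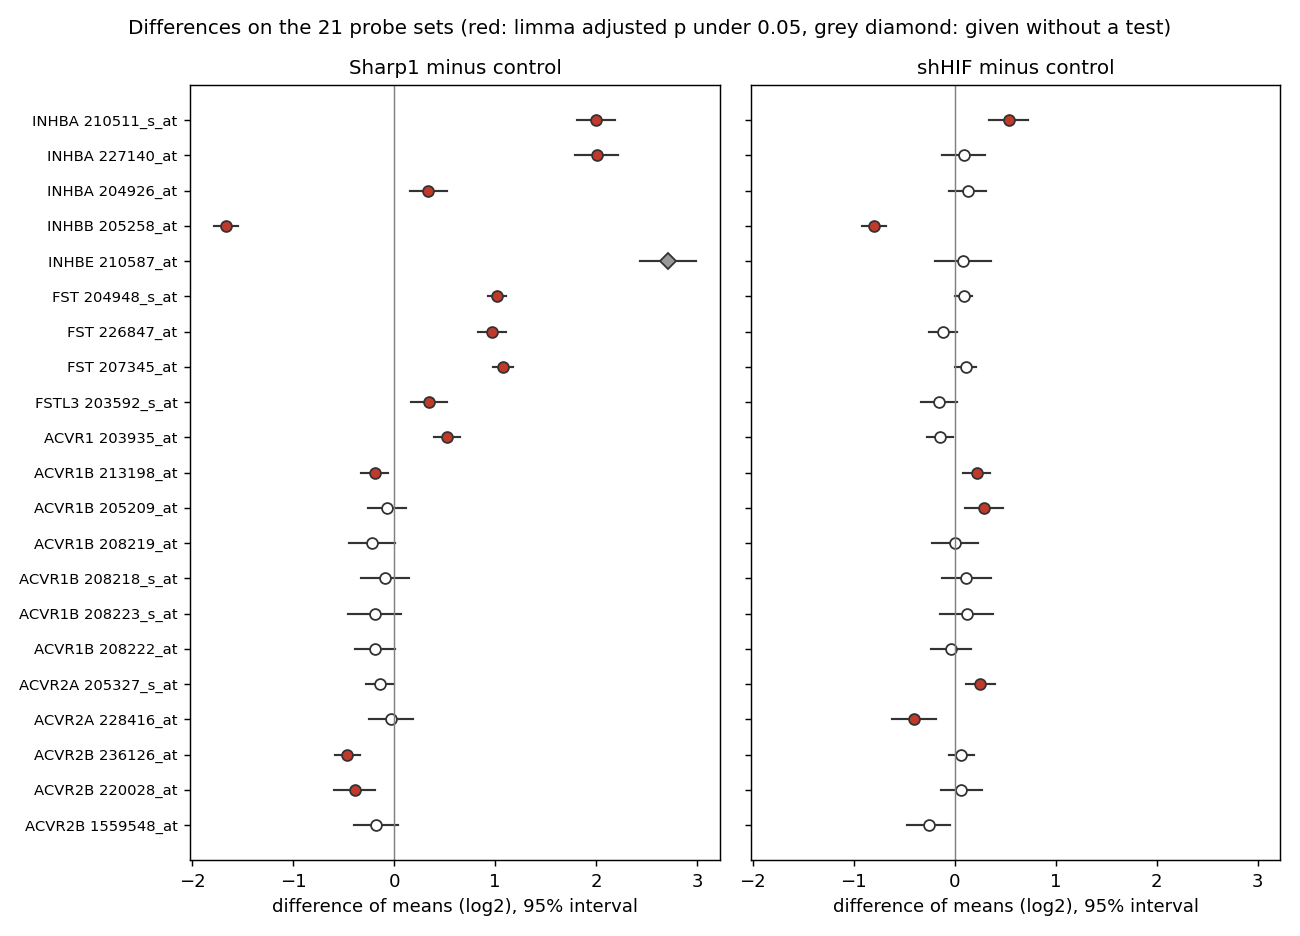
Differences of group means (log2) with 95% intervals from limma on the 21 probe sets, Sharp1 minus control on the left and shHIF minus control on the right. Red points passed an adjusted p of 0.05, and the grey diamond is the INHBE rise, given without a test. INHBE, INHBA and FST lie to the right and INHBB to the left in Sharp1 cells, while in shHIF cells only INHBB lies beyond 0.6 in size.

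Sharp1 and shHIF cells were also compared directly, since their separate differences share the control arrays. INHBE was 2.63 higher in Sharp1 than in shHIF cells (log2, SE 0.13, n = 4 per group), again as a description. INHBA was higher by 1.47 (SE 0.09, limma adjusted p = 8.58e-12) on 210511_s_at and by 1.92 (SE 0.10, limma adjusted p = 4.2e-13) on 227140_at. INHBB was lower by 0.86 (log2 difference -0.86, SE 0.06, limma adjusted p = 1.82e-11), so its level was lowest in Sharp1, intermediate in shHIF and highest in control, with no overlap between neighbours.

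FST was 0.93 to 1.09 higher in Sharp1 than in shHIF cells on its 3 probe sets, FSTL3 0.50 higher (limma adjusted p = 5.71e-05) and ACVR1 0.67 higher (limma adjusted p = 6.51e-09). Both type II receptors and ACVR1B were lower in Sharp1 cells on their brightest probe sets. The differences were -0.52 for ACVR2B (limma adjusted p = 2.11e-07), -0.41 for ACVR1B (limma adjusted p = 1.3e-05) and -0.39 for ACVR2A (limma adjusted p = 7.53e-05). On the other ACVR2A probe set the sign was opposite, at 0.38 (limma adjusted p = 0.00869), a call lost without shHIF A and D (0.16, limma adjusted p = 0.303). On 220028_at ACVR2B was lower too (-0.45, limma adjusted p = 0.000768), as was ACVR1B on 205209_at (-0.36, limma adjusted p = 0.00355). The 4 dim ACVR1B probe sets (-0.31 to -0.15), ACVR2B on 1559548_at (0.09) and INHBA on 204926_at (0.21) were not called. INHBA on 204926_at passed in 3 of 18 alternative settings, with limma adjusted p from 0.0422 to 0.221. ACVR1B on 208223_s_at passed without shHIF B (-0.39, limma adjusted p = 0.0299). With INHBE left out, 14 of 20 were called, 8 higher and 6 lower. Over all probe sets, 29.1% were called, 15.3% higher and 13.8% lower. The 14 members above the median probe set were all called, beside 48.0% of all such probe sets, and of the 6 dimmer ones 0 were in limma (2 at an unadjusted p under 0.05), beside 10.2%. The groups did not overlap on 12 of the 20, beside 28.0% of all probe sets.

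By group, the order of means was Sharp1, shHIF, control from high to low for INHBA on its 3 probe sets. For INHBA the shHIF and control neighbours did not differ beyond their spread on 2 of these. INHBE had the same order, with shHIF and control overlapping. FSTL3 and ACVR1 had Sharp1 highest, with shHIF and control overlapping. ACVR1B and ACVR2B had shHIF highest and Sharp1 lowest on their brightest probe sets, with shHIF and control overlapping on both. ACVR2A had that order on 205327_s_at without overlap of shHIF and control, while on 228416_at shHIF was lowest and control highest.

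Likeness of pattern was measured as the root mean square difference over the 12 arrays, after each gene's brightest probe set had been centred on its control mean. The genes nearest to INHBE were RGS4, a regulator of G protein signalling, at 0.31, ABI3BP, a matrix protein, at 0.32, and PTGS2, the inducible cyclooxygenase, at 0.40 (log2). They differed from control by 2.31, 2.45 and 3.12 in Sharp1 cells and by 0.06, 0.24 and 0.42 in shHIF cells. Nearest to FST were COL4A2, a basement membrane collagen chain, at 0.09, LZTS3 at 0.10, and IL11, a cytokine, at 0.10. These measures describe 19775 genes ranked over 12 arrays and carry no test.

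The rest of the pathway was read from 6 lists, 1 brightest probe set per gene, on which 24.7% of all genes were called in Sharp1 cells and 28.3% in shHIF cells against control, and 36.1% between Sharp1 and shHIF cells. The median difference over all genes was 0.00 in Sharp1 and 0.05 in shHIF cells. Of 18 other ligands of the TGF-beta family, 1 rose and 3 fell in Sharp1 cells (median -0.07). GDF15, a stress-induced ligand, fell by 1.57 (SE 0.11) and BMP2, a bone morphogenetic protein, by 0.57 (SE 0.09), while TGFB2 rose by 0.26. In shHIF cells 5 of the 18 rose and 1 fell (median 0.04). There BMP2 rose by 1.13 (SE 0.09) and GDF15 by 0.63 (SE 0.11), and BMP8B fell by 0.54 (SE 0.14). BMP8B read 5.25 to 6.28 on shHIF arrays and overlapped control (6.26 to 6.51). Compared directly, GDF15 and BMP2 were lower in Sharp1 than in shHIF cells, with differences of -2.20 and -1.69 (log2). INHA, the inhibin alpha subunit that pairs with beta subunits, read near 4.1 in each group and was not called.

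Of 9 other receptors, 1 rose and 2 fell in Sharp1 cells (median -0.11). ACVR1C, a further type I receptor of the SMAD2 branch, rose by 0.44, and TGFBR3, the co-receptor betaglycan, and TGFBR1 fell by 0.44 and 0.29. The ACVR1C reading was dim, at 5.23 in Sharp1 cells and 4.79 in control, below the median probe set. In shHIF cells, TGFBR2 rose by 0.15 and BMPR2, a type II receptor for bone morphogenetic proteins, fell by 0.83 (SE 0.08), with the other 7 not called (median 0.07). Of 13 other extracellular antagonists and co-receptors, 5 rose and 2 fell in each comparison (median 0.09 in Sharp1 and 0.13 in shHIF cells). In Sharp1 cells BMPER and FSTL1, a follistatin-like secreted protein, rose by 1.14 and 0.92, and NOG, which encodes the antagonist noggin, and LTBP1 fell by 0.68 and 0.33. BMPER was dim too, at 5.18 in Sharp1 cells and 4.04 in control. In shHIF cells NBL1 and LTBP1 rose by 0.58 and 0.52, and TWSG1 and FSTL1 fell by 0.27 and 0.15.

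Downstream, 7 of 19 SMADs and intracellular regulators rose and 4 fell in Sharp1 cells (median 0.01), and 5 rose and 5 fell in shHIF cells (median -0.02). SMAD9, a SMAD of the bone morphogenetic protein branch, rose by 1.39 (SE 0.10) in Sharp1 cells and fell by 0.75 (SE 0.10) in shHIF cells. SKIL, a SMAD corepressor, rose by 0.57 in Sharp1 cells, where SMAD7, the inhibitory SMAD, and SMAD3 fell by 0.55 and 0.49. In shHIF cells SMAD7 rose by 0.36 and TGIF2 by 0.29, and SMAD1 fell by 0.60 (SE 0.13). SMAD1 read 6.26 to 7.27 on shHIF arrays and overlapped control (7.23 to 7.54), and SMAD7 overlapped control too. The genes of the lists were not refitted without shHIF A and D. Of 4 proprotein convertases, enzymes that cleave activin precursors and other proproteins, PCSK5 rose by 0.92 and FURIN by 0.38 in Sharp1 cells, and FURIN by 0.35 in shHIF cells, with the rest not called. The median was 0.23 in Sharp1 cells and 0.03 in shHIF cells. Of 17 transcripts known as SMAD2 and SMAD3 targets, 3 of them also in the SMAD list, 9 rose and 4 fell in Sharp1 cells (median 0.29), and 6 rose and 3 fell in shHIF cells (median 0.06). In Sharp1 cells TAGLN rose by 1.76 and FN1 by 1.21, TGFBI fell by 2.34, and SNAI2 fell by 1.39. In shHIF cells JUNB and SMAD7 each rose by 0.36, and CCN2 and COL4A1 fell by 0.61 and 0.52.

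**Figure D4:**
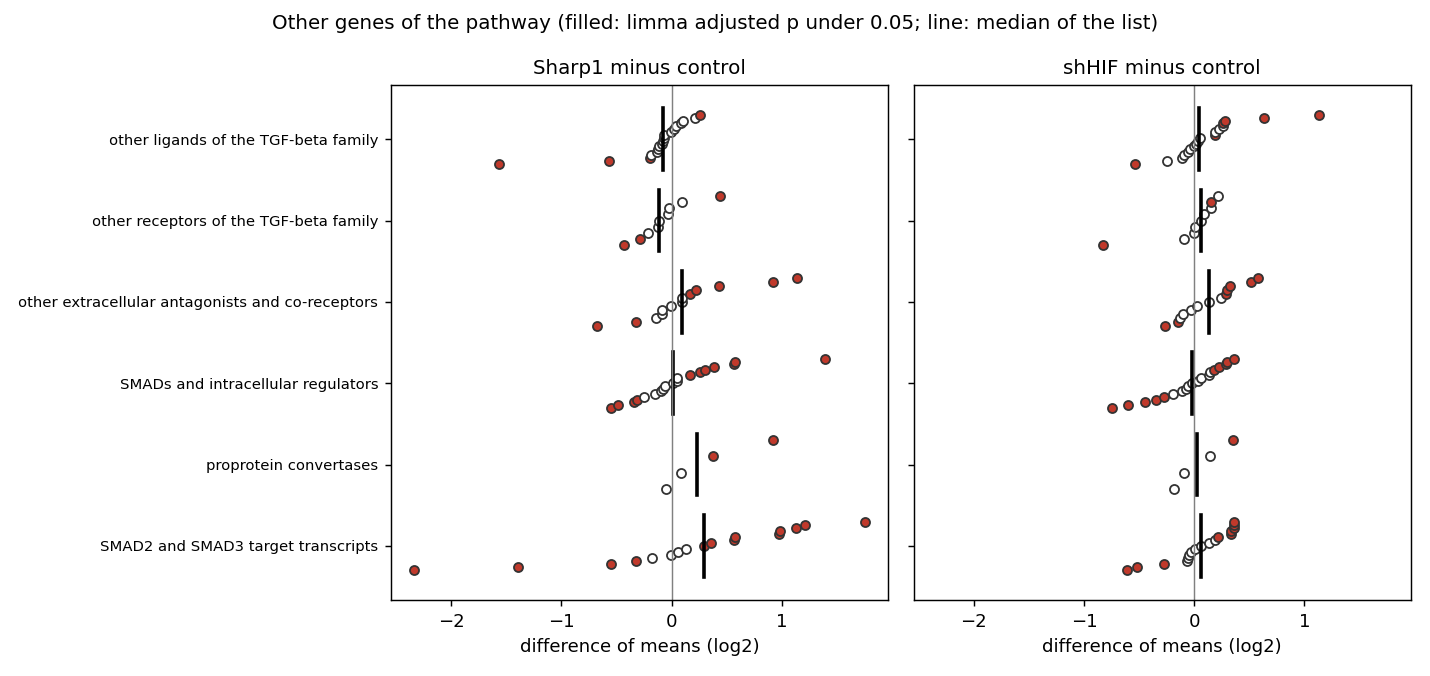
Differences of group means (log2) for other genes of the pathway, 1 point per gene on its brightest probe set, by list, Sharp1 minus control on the left and shHIF minus control on the right. Filled points passed an adjusted p of 0.05, and the vertical line is the median of the list. Rises and falls are mixed in every list but the proprotein convertases, where the called genes (2 in Sharp1 and 1 in shHIF cells) all rose.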

How the data were processed

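The deposited log2 expression values, 1 per probe set and array, were made by the authors with RMA, per the submitters' processing notes. RMA corrects background and normalizes between arrays, and its version is not stated there. Arrays have no read depth, and their number (12) limits the precision. Of 54675 probe sets, 62 control probe sets were left out. Genes were named from the platform annotation, in which 41091 probe sets had 1 symbol, 1801 several and 11721 none here. Promoter sequences came from RefSeq (GRCh38.p14), whose gene table gave the neighbours.

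In R 4.3.3 with limma 3.58.1, a mean per group was fitted to all 54613 probe sets and tested after eBayes with trend, with Benjamini-Hochberg adjustment within each comparison and calls at an adjusted p under 0.05. The fit was tested on data simulated for Sharp1 against control. Among 54613 probe sets, 20% of 50 probe sets changed by 0.25 (log2) were called, 72% of those changed by 0.5, 98% by 1 and 100% by 2. There were 4 false calls among 149. Only 50 probe sets were changed at each size, whereas 9875 were called in the measured comparison. The Benjamini-Hochberg adjustment depends on how many probe sets differ, so these rates do not carry over to the measured comparison.

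The members, lists and tests were chosen with earlier results of these data known. All members are described over all their probe sets, the dim ones by range, and for each list up to 2 called genes with the largest rise and 2 with the largest fall. The alternatives were 1 probe set per gene, array centring, no dim probe sets, only the 2 groups compared, array weights, no trend, a replicate block, and leaving out arrays.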

Additional observations from a re-analysis of the deposited data

Results flagged for a closer look

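In 4 of 63 sets of 4 arrays (21 probe sets in 3 groups), a single array stood apart from the other 3 by more than Dixon's 95% criterion, and chance flags about 1 in 20. FST read 8.99 on control D, against 9.08 to 9.09 on the other control arrays (207345_at). FSTL3 read 6.65 on control C, against 6.78 to 6.80. ACVR1B read 5.24 on shHIF C, against 4.80 to 4.86 (208218_s_at), on a dim probe set. ACVR2A read 7.59 on control B, against 7.50 to 7.51 (205327_s_at). In each of the 3 control cases the gap was at most 0.13 (log2).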

How the results depend on the processing

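The differences of the member probe sets were recomputed 1203 times over the alternatives. Of these, 1161 kept direction and side of the threshold, 17 lost the call, 9 gained it and 16 changed sign, all 16 for differences that were not called. Counts in this section include INHBE, which was treated as chosen by its rise in Sharp1 cells, so nothing is read from them. Without INHBE, the main fit called 12 of 20 in Sharp1 against control and 14 of 20 in Sharp1 against shHIF. With 1 probe set per gene, 8 of 9 members were called in Sharp1 against control, 4 in shHIF against control and 9 in Sharp1 against shHIF, among 5370, 6095 and 7588 of 19775 genes; fewer probe sets enter this fit by construction. Without shHIF A and D, the calls of ACVR1B on 205209_at and of ACVR2A on 205327_s_at and 228416_at were lost in shHIF against control, with 2 arrays fewer. ACVR1B on 208223_s_at (shHIF against control) then read -0.070 and ACVR2B on 1559548_at (Sharp1 against shHIF) -0.012, and with array weights ACVR1B on 208219_at (shHIF against control) read 0.0059, each with its sign turned; the cause was not tested.

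When single arrays were left out, in Sharp1 against control ACVR1B on 205209_at ranged from -0.142 to 0.020 and ACVR2A on 228416_at from -0.095 to 0.030. In shHIF against control, INHBA on 227140_at ranged from -0.0047 to 0.160, INHBE from -0.029 to 0.199, ACVR1B on 208219_at from -0.078 to 0.052, on 208223_s_at from -0.040 to 0.202 and on 208222_at from -0.088 to 0.017. With the letter A to D as a replicate block, no call of a member changed in any of the 3 comparisons. Same-lettered arrays deviated from their group means with correlations of -0.16 to 0.13, over 0.1 in 1 of 12 pairs, and no pairing by letter was seen. Pairs of different letters ranged from -0.17 to 0.21, so this check cannot show whether same-lettered arrays were handled together. Readings below the median probe set limit what the 7 dim member probe sets can show.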
